A study of Mus musculus with 14 samples.

Results

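The genes described here make ribosomes: the subunits of RNA polymerase I, the nucleolar proteins that guide, cut, modify and assemble ribosomal RNA, the RNA exosome that trims it, and the transcription factor Myc. Members were taken by symbol from the deposited natural killer (NK) cell count table, as the genes whose names begin with Nop, Nol, Utp or Rrp and a digit, with Polr1 or with Exosc, together with Gar1, Nhp2, Mybbp1a, Fbl, Dkc1, Ncl, Npm1, Nolc1, Wdr43, Bop1, Pes1 and Myc. This rule found 60 of the 10210 genes in the table. It uses gene names only, but it was set with earlier results of these data known. Of these 60, 56 passed the filter on low counts and were among the 8471 genes tested, while Ncl, Nol12, Polr1e and Utp25 did not pass it. Nol4l matches the rule by its name only and has another role, and the numbers of members called were the same without it.

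RNA polymerase I transcribes one long precursor RNA in the nucleolus, which is then cut and modified to give most of the RNA of the ribosome. Small nucleolar ribonucleoproteins (snoRNPs) carry out most of the modification: box C/D particles methylate riboses with the enzyme fibrillarin (Fbl), and box H/ACA particles convert uridine to pseudouridine with dyskerin (Dkc1). Assembly factors fold the precursor into the small and the large subunit, and the exosome degrades the spacers and trims the ends. Myc raises transcription of many of these genes in dividing cells, and activated lymphocytes, NK cells among them, enlarge their nucleoli before they divide.

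The libraries were 3′ end messenger RNA libraries of NK cells from 3 groups of BALB/c mice. The first group held NK cells from spleens of healthy BALB/C mice of 8 weeks (n = 3). The second held NK cells from spleens of mice carrying 4T1-GFP tumours (n = 4), and the third NK cells from inside the 4T1 tumours (n = 4). Tumours were grown in females injected at 8 weeks of age with 100000 4T1-GFP cells, a mouse mammary carcinoma line that carries green fluorescent protein (GFP), in the mammary fat pad. Cells of every group went through a magnetic NK isolation kit and a flow sort, as negative for GFP, EPCAM, CD3, CD31 and CD14 and positive for CD45 and NKp46. Tumours were digested with collagenase A and DNase for 20 min at 37 °C, whereas spleens were crushed without enzyme, so tissue and digestion cannot be told apart in any comparison with the tumours. The replicates are called independent by the submitters, and which mouse each came from is not given in the sources used here, so the p-values measure the spread between these libraries.

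Library totals ran from 559688 to 1966963 counts, and the members held between 0.358% and 0.41% of them. A level that 3 counts would give, the most that a count of 0 allows, lay between 1.53 and 5.36 CPM, the counts scaled to a common library size, depending on the library. These limits use the library totals, whereas levels are CPM scaled with TMM factors, which correct for composition. Replicates are named in the order of the labels. All 12 NK cell markers were listed, at a summed 28890 to 30100 CPM in healthy spleens, 29090 to 32310 in tumour-bearing spleens and 22140 to 27080 in tumours. A large part of each sum was Gzma. In the test described below, 1 of the 12 was higher and 6 were lower in tumours against tumour-bearing spleens at an adjusted p under 0.05. Against healthy spleens 2 were higher and 4 lower. The spleen libraries also split by base composition. The median log2 level of the 2085 most GC-poor tested genes minus that of the 2085 most GC-rich, relative to the mean of all libraries, was 0.34 in healthy replicate 1 and 0.26 and 0.15 in tumour-bearing replicates 1 and 2. It was -0.25 and -0.40 in healthy replicates 2 and 3 and -0.39 and -0.54 in tumour-bearing replicates 3 and 4, while the tumour libraries lay between 0.11 and 0.39. Where the call of a tested member in tumours against tumour-bearing spleens was lost or gained on a side of this split, both sides are given below. Replicates 1 and 2 of the tumour-bearing spleens are the side the tumours lie on.

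In tumour NK cells, some ribosome biogenesis genes were higher and others lower than in spleen NK cells. A member is called where its p from edgeR's quasi-likelihood test, adjusted by Benjamini-Hochberg across the whole table, was under 0.05. Against tumour-bearing spleens, 12 of 56 members were called (21.4%), beside 29% of all genes tested (15.8% higher and 13.2% lower). Under upper-quartile scaling 2 members were called higher and 11 lower, and against tumour-bearing replicates 1 and 2 only 5 were called in all. Higher in tumours were Myc, Npm1, Nop53 and Polr1c, and lower were Rrp8, Exosc10, Exosc1, Exosc4, Exosc7, Rrp9, Nop10 and Nolc1. The median log2 fold change of the members was -0.15 (all genes 0.0014), and 35 of 56 had a negative value (62.5%, all genes 49.9%). Single values lay between -1.49 and 0.95. In 14 members the tumour and tumour-bearing spleen libraries did not overlap (all genes 29.7%), 5 of them above (all genes 16.5%) and 9 below (all genes 13.3%), and 20 had an unadjusted p under 0.05 (all genes 39.4%).

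Against healthy spleens, 12 of 56 members were again called (21.4%), beside 30.5% of all genes (16.5% higher and 14% lower). Myc, Npm1, Nop53, Nhp2, Polr1d and Rrp1b were higher in tumours, and Rrp8, Exosc10, Exosc1, Exosc4, Exosc7 and Polr1b were lower. Upper-quartile scaling gave 4 higher and 7 lower, and without healthy replicate 3 only 7 members were called. The median was 0.02, as over all genes (0.02). In 15 members the libraries of these groups did not overlap (all genes 34.8%), 10 of them above (all genes 18.5%) and 5 below (all genes 16.3%), and 21 had an unadjusted p under 0.05 (all genes 41%). Between tumour-bearing and healthy spleens a single member, Nhp2, was called (1.79%, all genes 1.58%, of which 1.23% were higher and 0.354% lower), and 5 had an unadjusted p under 0.05 (all genes 11.2%). Both comparisons with tumours use the same 4 tumour libraries. Of the 56 tested members, 40 were called in no comparison. The shares called were below the background in both tumour comparisons and near it between the spleens.

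**Figure D1:**
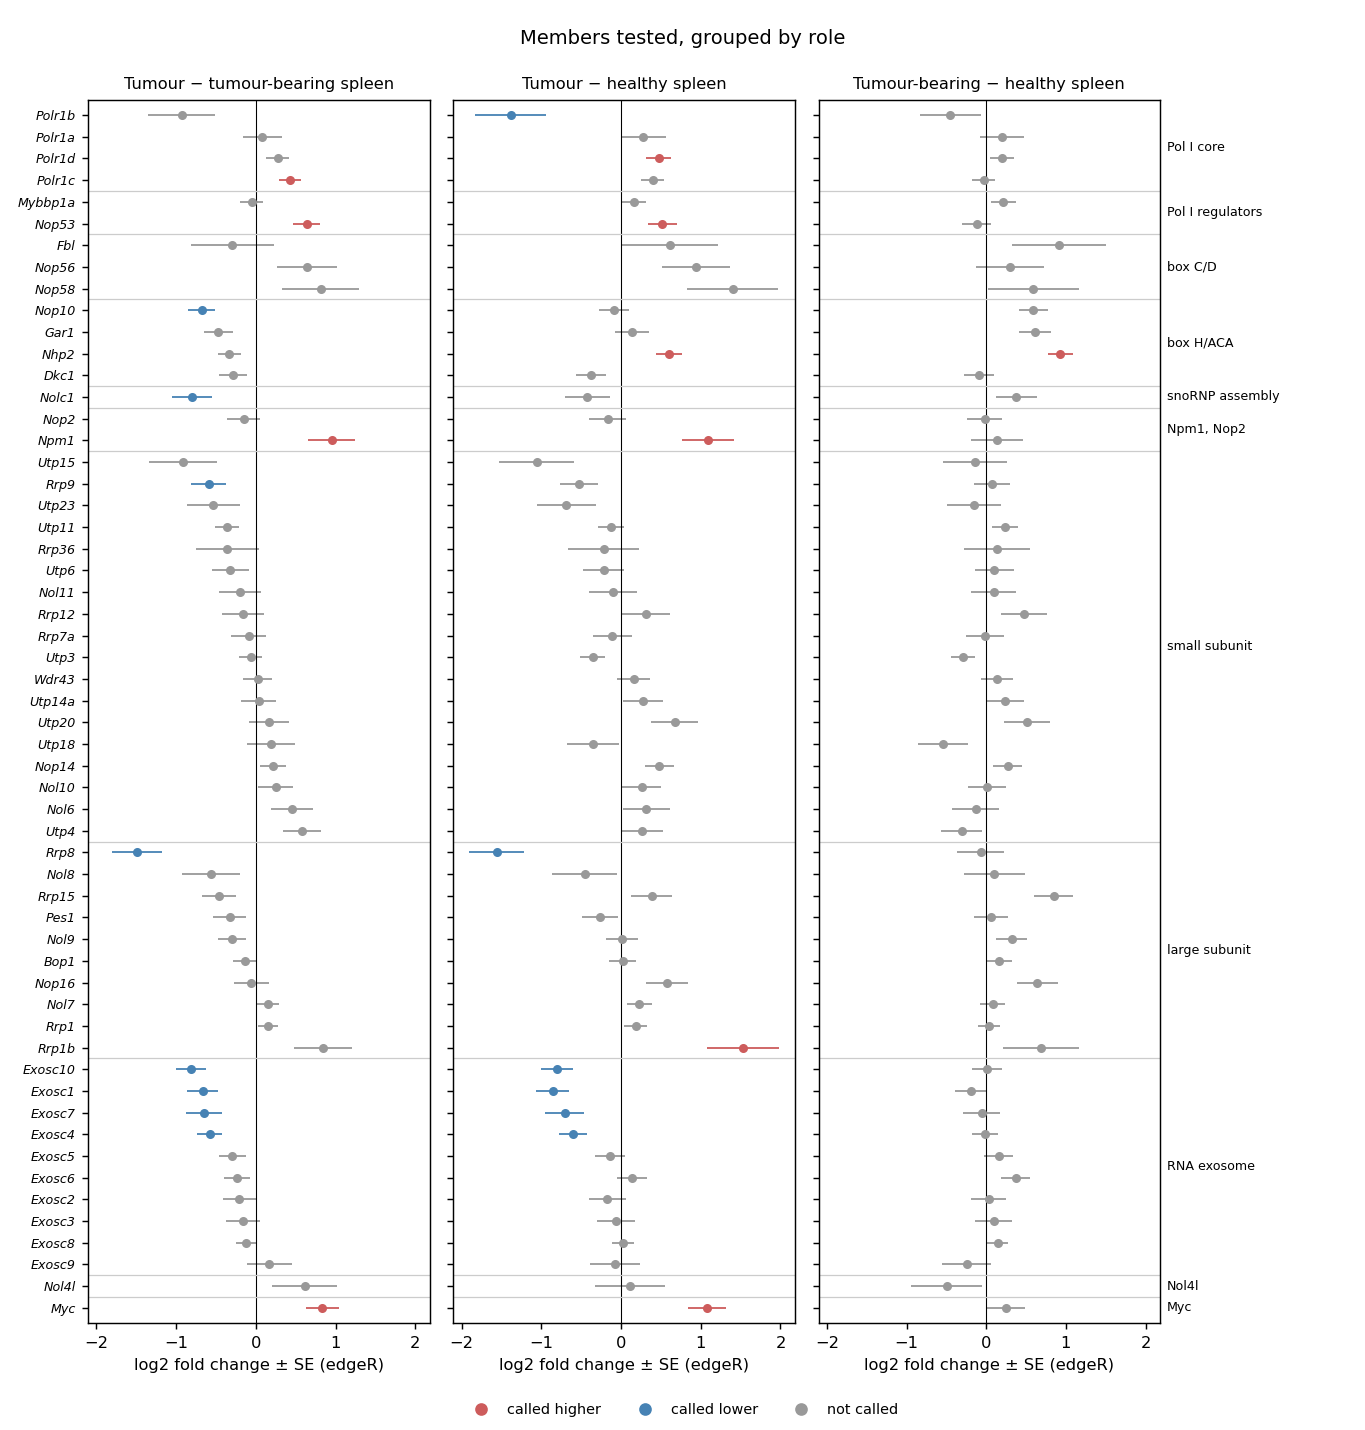
Log2 fold changes of the 56 tested members (x axis, with their standard errors) by role, for tumour against tumour-bearing spleen, tumour against healthy spleen and tumour-bearing against healthy spleen NK cells. Red and blue points passed an adjusted p of 0.05 as higher or lower: 4 and 8 members in the first panel, 6 and 6 in the second, and 1 higher in the third.

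Summed over all 60 members, the level was 3440 ± 165 CPM (SD, n = 3) in healthy spleens, 3824 ± 94.5 (n = 4) in tumour-bearing spleens and 4159 ± 120 (n = 4) in tumours. Without Npm1 the sums were 3164 ± 256, 3524 ± 199 and 3577 ± 38.3 CPM. In these sums tumours and tumour-bearing spleens differed by less than the spread among the tumour-bearing spleens. In bulk samples such as these, fewer cells of a type and less RNA per cell cannot be told apart.

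Other measures moved with the tumour libraries. All 14 immediate early genes, which enzymatic digestion and activation both induce, were called higher in tumours against each spleen group, at a summed 6812 to 9597 CPM in tumours, 1391 to 2490 in tumour-bearing spleens and 1120 to 1538 in healthy spleens. Macrophage and monocyte markers (8 of 11 listed) summed to 44.7 to 258.5 CPM in tumours and at most 28.8 in spleens, with Csf1r at 0 in every spleen library and between 0 and 7.21 CPM in tumours. Neutrophil markers (4 of 7 listed) lay at 60.9 to 158 CPM in tumours and at most 11.2 in spleens, and the carcinoma markers listed, Epcam and Cdh1 of 8, at 27.7 to 54.9 CPM against at most 3.08. Most of this last sum was Cdh1, at 26.46 to 47.55 CPM in tumours, with Epcam at 1.202 to 7.378 CPM. The part of these in the results below was not tested.

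Myc, Npm1 and Nop53 were called higher in tumours against both spleen groups. Myc (chr15:61985391-61990374, plus strand, GRCm38) encodes the factor that binds DNA with its partner Max. Its level was 27.7, 35.9 and 42.1 CPM in healthy spleens, 48.0, 34.6, 36.5 and 52.8 CPM in tumour-bearing spleens and 98.4, 55.1, 58.9 and 89.4 CPM in tumours. Every tumour library lay above every spleen library, with replicates 2 and 3 only just above tumour-bearing replicate 4. Relative to the spleens it was higher by a log2 fold change of 0.83 (SE 0.206, adjusted p = 0.00473) against tumour-bearing and 1.07 (SE 0.237, adjusted p = 0.00182) against healthy spleens. Between the spleens it was 0.24 (adjusted p = 0.799).

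The genes around Myc in its network, which were not members, changed in both directions. Of 8 tested, 4 were higher and 2 lower in tumours against tumour-bearing spleens, beside 15.8% and 13.2% of all genes. Mxd1, whose protein competes with Myc for Max and represses its targets, was 2.56 log2 units higher (adjusted p = 5.36e-10), with a mean of 68.8 CPM in tumour-bearing spleens and 407 CPM in tumours. Mnt, another such repressor, was 0.74 higher (adjusted p = 0.000334), and Max itself 0.40 higher (adjusted p = 0.0156). Mxd3, a family member tied to cycling cells, was 1.54 lower in tumours (adjusted p = 0.00179), as was Mlx, the partner of a parallel network, by 0.63 (adjusted p = 0.00151). In tumour-bearing against healthy spleens Mxd3 was 2.27 higher (adjusted p = 0.00488).

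Npm1 (chr11:33152287-33163206, minus strand, GRCm38) encodes nucleophosmin, an abundant nucleolar chaperone that helps to export ribosomal particles. It stood at 378, 248 and 202 CPM in healthy spleens, at 431, 384, 209.5 and 177 CPM in tumour-bearing spleens and at 496, 684, 653 and 492 CPM in tumours. The tumours were all higher than the spleens, and within the spleens the replicates on the GC-poor side were the high ones. On the log2 scale the difference was 0.95 (SE 0.294, adjusted p = 0.0317) against tumour-bearing and 1.09 (SE 0.328, adjusted p = 0.0273) against healthy spleens. Set against tumour-bearing replicates 1 and 2 only, on the same side as the tumours, it was 0.51 (adjusted p = 0.129), and against replicates 3 and 4 only 1.55 (adjusted p = 0.000196). With a correction for GC content across all libraries it was 0.81 (adjusted p = 0.00244). Under upper-quartile scaling the adjusted p against tumour-bearing spleens was 0.0555, which lost the call. The call against tumour-bearing spleens was also lost without tumour-bearing replicate 3 (adjusted p = 0.076) or 4 (adjusted p = 0.0543) and without tumour replicate 2 (adjusted p = 0.0814) or 3 (adjusted p = 0.0835). That against healthy spleens was lost without healthy replicate 2 (adjusted p = 0.0944) or 3 (adjusted p = 0.102) and without tumour replicate 2 (adjusted p = 0.0635) or 3 (adjusted p = 0.0704). Npm1 has processed pseudogenes, and how reads shared with such copies were counted is not given in the sources used here, so its level is uncertain. Nucleolin (Ncl), its partner in the nucleolus, had 3, 7 and 6 counts in healthy spleens, 3, 15, 5 and 3 in tumour-bearing spleens and 8, 12, 9 and 4 in tumours, too few to test.

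Nop53, which links the exosome to the large subunit precursor and also acts in the nucleolar stress response, was at 341, 375 and 420.1 CPM in healthy spleens, at 280.5, 303, 407 and 404 CPM in tumour-bearing spleens and at 380.4, 571, 673 and 549.5 CPM in tumours. Tumour replicate 1 lay among the spleen libraries and the other 3 above all of them. Its rise was 0.64 log2 units (SE 0.17, adjusted p = 0.0078) against tumour-bearing and 0.52 (SE 0.186, adjusted p = 0.0401) against healthy spleens, and the latter was lost under 10 of 14 alternative settings, those without any 1 of the healthy replicates or of tumour replicates 2, 3 and 4 included (log2 fold changes 0.38 to 0.60). Against tumour-bearing replicates 1 and 2 only it was 0.90 (adjusted p = 0.00315), and against replicates 3 and 4 only 0.39 (adjusted p = 0.123).

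**Figure D2:**
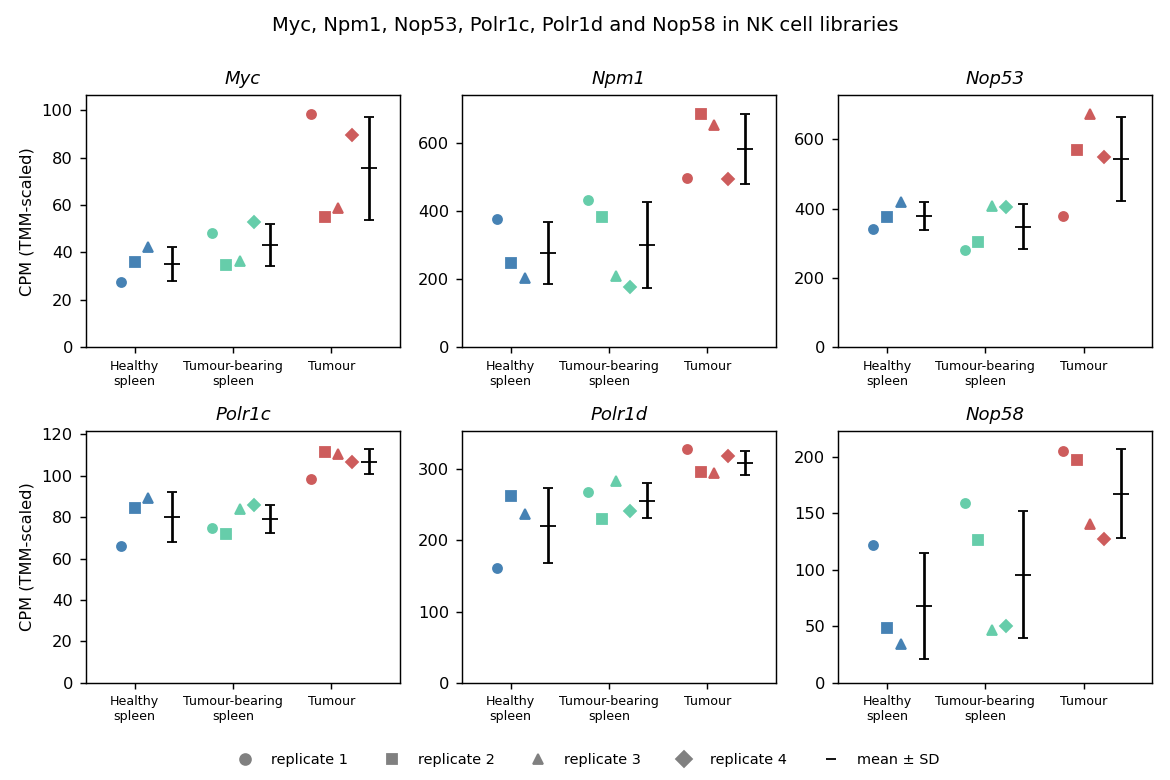
CPM of Myc, Npm1, Nop53, Polr1c, Polr1d and Nop58 in each NK cell library, by group (x axis), with the mean and SD beside the points and replicates told apart by symbol. Myc, Npm1, Polr1c, Polr1d and Nop58 have tumour points that all lie above the healthy spleens, and Npm1 and Nop58 also differ between replicates 1 and 2 and replicates 3 and 4 of the tumour-bearing spleens.

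Among the RNA polymerase I subunits that are members, Polr1c and Polr1d were each called higher in tumours in one of the comparisons. The second largest subunit was called lower in one. Polr1c, a subunit shared with RNA polymerase III, was at 66.3, 84.5 and 89.1 CPM in healthy spleens, 74.7, 72.0, 83.9 and 86.1 CPM in tumour-bearing spleens and 98.4, 112, 111 and 106 CPM in tumours. The tumour libraries were above all spleen libraries, and the log2 fold change was 0.43 (SE 0.135, adjusted p = 0.0222) against tumour-bearing and 0.40 (SE 0.15, adjusted p = 0.052) against healthy spleens. The first of these was lost without tumour-bearing replicate 1 (adjusted p = 0.0584), without tumour-bearing replicate 2 (adjusted p = 0.0672) and without tumour replicate 3 (adjusted p = 0.0517), and under upper-quartile scaling (adjusted p = 0.0649). Against tumour-bearing replicates 1 and 2 only, Polr1c was 0.54 higher (adjusted p = 0.0338), and against replicates 3 and 4 only 0.29 (adjusted p = 0.172). Polr1d, also a shared subunit, was at 162, 263 and 238 CPM in healthy spleens, at 268, 230.5, 284 and 241 in tumour-bearing spleens and at 328, 296, 295 and 318 in tumours. The tumours were again the highest libraries, with a log2 fold change of 0.47 (SE 0.156, adjusted p = 0.0282) against healthy spleens and 0.27 (adjusted p = 0.16) against tumour-bearing spleens. Without healthy replicate 1, the lowest library for Polr1d, the adjusted p against healthy spleens was 0.14, and it was 0.0638 without tumour replicate 1 and 0.0596 without tumour replicate 4. Under upper-quartile scaling it was 0.0688.

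Polr1b, the second largest subunit of the enzyme, had 12.3, 10.2 and 13.2 CPM in healthy spleens, 9.15, 7.26, 10.3 and 7.23 CPM in tumour-bearing spleens and 5.74, 0, 6.01 and 3.80 CPM in tumours. The 0 in tumour replicate 2 allows up to 4.21 CPM there before TMM scaling. All tumour libraries were below all spleen libraries. On the log2 scale the difference was -1.39 (SE 0.442, adjusted p = 0.0228) against healthy spleens, lost without healthy replicate 3 (adjusted p = 0.0806) or tumour replicate 4 (adjusted p = 0.0516), and -0.93 (adjusted p = 0.102) against tumour-bearing spleens. Polr1a, the largest subunit, was at 16.9, 13.4 and 12.4 CPM, at 13.0, 15.6, 21.1 and 13.0 CPM and at 18.0, 13.0, 15.6 and 20.0 CPM in the 3 groups in the same order. Its groups overlapped, and its log2 fold change against tumour-bearing spleens was 0.08 (adjusted p = 0.863). Polr1e had between 1 and 8 counts in every library and was not tested.

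Of the polymerase I genes outside the rule, none of the 6 further core subunits tested was called in either tumour comparison. Of 10 initiation factors and regulators, 1 was higher and 3 were lower in each tumour comparison, beside 29% and 30.5% of all genes called in either direction. Ttf1, which ends polymerase I transcription, was among the lower ones, by 0.65 log2 units (adjusted p = 0.00283) against tumour-bearing and by 0.76 against healthy spleens. Mybbp1a, a Myb-binding repressor of polymerase I and itself a member, ranged from 73.3 to 107 CPM over all libraries and was called in no comparison.

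Between the spleens, the one member called was a box H/ACA protein. Nhp2 (chr11:51619735-51623714, plus strand), Gar1 (chr3:129824912-129831396, minus strand) and Nop10 (chr2:112261926-112263269, plus strand, all GRCm38) are the small core proteins of the particle beside dyskerin. Their promoters are shown because the 3 genes had their highest mean level in the same group of libraries. Each is the RefSeq window on GRCm38.p6 from 250 bases before to 50 bases after the gene's start, on the gene's strand, with the ETS-type letters CCGGAAG, or CTTCCGG for the other strand, in capitals.
Nhp2, chr11:51619523-51619822, plus strand: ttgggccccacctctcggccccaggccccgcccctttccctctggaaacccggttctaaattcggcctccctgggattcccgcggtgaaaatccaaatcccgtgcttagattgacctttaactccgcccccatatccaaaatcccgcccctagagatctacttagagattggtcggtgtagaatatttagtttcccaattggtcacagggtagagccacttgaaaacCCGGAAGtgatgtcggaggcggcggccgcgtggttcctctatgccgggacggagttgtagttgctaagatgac
Gar1, chr3:129831347-129831646, minus strand: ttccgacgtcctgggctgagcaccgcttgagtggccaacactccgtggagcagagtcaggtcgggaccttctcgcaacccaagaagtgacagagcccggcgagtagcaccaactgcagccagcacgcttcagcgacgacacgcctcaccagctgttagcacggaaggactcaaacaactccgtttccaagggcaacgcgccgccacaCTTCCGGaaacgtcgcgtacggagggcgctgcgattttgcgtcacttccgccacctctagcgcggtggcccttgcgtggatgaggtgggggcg
Nop10, chr2:112261676-112261975, plus strand: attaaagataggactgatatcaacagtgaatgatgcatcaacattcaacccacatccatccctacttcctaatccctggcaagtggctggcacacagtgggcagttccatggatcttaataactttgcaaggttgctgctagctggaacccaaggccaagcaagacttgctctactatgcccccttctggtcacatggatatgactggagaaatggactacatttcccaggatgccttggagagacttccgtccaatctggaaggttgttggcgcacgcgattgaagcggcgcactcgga
The letters begin 23 bases before the start of Nhp2 and 43 bases before that of Gar1, and they are not in this window of Nop10. They stand in 33.3% of the 48 member windows found, in 24.3% of those of all tested genes and in 9.93% of all windows, and a match is a description of the letters only.

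Nhp2 was at 67.8, 80.8 and 80.1 CPM in healthy spleens, at 149, 126, 148 and 165 CPM in tumour-bearing spleens and at 121, 98.5, 142 and 99.8 CPM in tumours. All tumour-bearing spleens and all tumours lay above all healthy spleens. Between the spleens the log2 fold change was 0.93 (SE 0.162, adjusted p = 0.00337), and that of tumours against healthy spleens was 0.60 (SE 0.165, adjusted p = 0.0091). In tumours against tumour-bearing spleens it was -0.33 (adjusted p = 0.0908). Against tumour-bearing replicates 1 and 2 only, Nhp2 was at -0.232 (adjusted p = 0.409), and against replicates 3 and 4 only at -0.455 (adjusted p = 0.0441).

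Nop10 followed the same order in the spleens, at 77.0, 101 and 132 CPM in healthy and 145, 133, 150.3 and 205 CPM in tumour-bearing spleens, and stood at 91.0, 82.6, 98.6 and 121 CPM in tumours. The tumour-bearing spleens were above all other libraries, though only just above healthy replicate 3. Against tumour-bearing spleens the tumours were lower by a log2 fold change of -0.68 (SE 0.173, adjusted p = 0.00583), and between the spleens the value was 0.59 (SE 0.188, adjusted p = 0.144). Against tumour-bearing replicates 1 and 2 only, Nop10 differed by -0.50 (adjusted p = 0.0776), and against replicates 3 and 4 only by -0.88 (adjusted p = 0.00199). Gar1 was at 26.2, 44.4 and 47.0 CPM in healthy spleens, at 61.0, 58.0, 65.9 and 63.6 CPM in tumour-bearing spleens and at 59.8, 39.1, 40.3 and 39.0 CPM in tumours. Tumour replicate 1 stood with the tumour-bearing spleens and the other tumours with the healthy ones. Its log2 fold changes were 0.61 (SE 0.203, adjusted p = 0.171) between the spleens and -0.47 (adjusted p = 0.0636) in tumours against tumour-bearing spleens. Dkc1, the catalytic subunit of the same particle, was at 64.7, 54.0 and 83.4 CPM in healthy spleens, 65.5, 50.8, 76.2 and 59.3 CPM in tumour-bearing spleens and 51.6, 52.2, 57.1 and 44.7 CPM in tumours. Its groups overlapped, and it was called in no comparison (-0.09 between the spleens, adjusted p = 0.931).

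The GC side was read from these same counts and no label gives it, so a fit that uses it is no separate test. When the spleen libraries alone were fitted with this side as a block, 4 of 55 members were called, all higher in tumour-bearing spleens (7.27%, all genes 8.34%, beside 1.58% of all genes in the main fit). They were Nhp2 (0.97, SE 0.129, adjusted p = 2.21e-06), Nop10 (0.68, SE 0.136, adjusted p = 0.000835), Gar1 (0.66, SE 0.164, adjusted p = 0.00815) and Rrp15 (0.95, SE 0.235, adjusted p = 0.00805), a large subunit factor. Dkc1 was at -0.02 in that fit (adjusted p = 0.964). Over all 56 members the median log2 fold change between the spleens was 0.10 (all genes -0.0042), with 38 positive. In 11 members the CPM of the spleen groups did not overlap, 10 of them higher in the tumour-bearing mice and 1 lower (all genes 12.2%, with 6.52% higher and 5.71% lower). Proliferation markers moved in the same libraries: 13 of the 16 were tested and 5 were called higher between the spleens, and the summed level of the 14 listed was 381 to 403 CPM in healthy spleens, 650 to 755 in tumour-bearing spleens and 567 to 740 in tumours. Their part in the result was not tested.

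**Figure D3:**
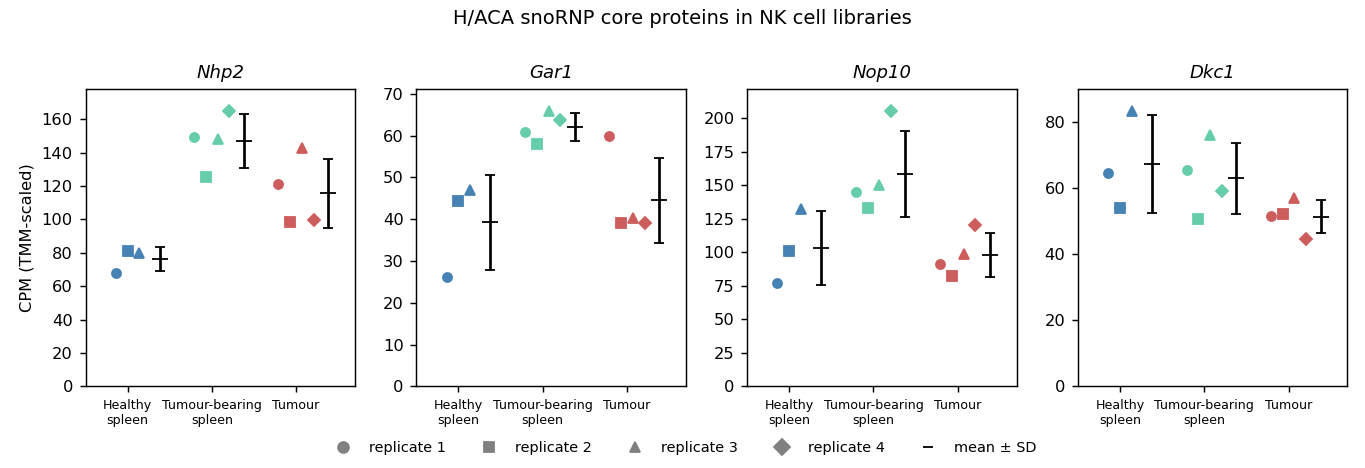
CPM of the box H/ACA proteins Nhp2, Gar1, Nop10 and Dkc1 in each NK cell library, by group (x axis), with mean and SD beside the points. Tumour-bearing spleens lie above healthy spleens without overlap for Nhp2, Gar1 and Nop10, and the groups overlap for Dkc1.

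None of the 3 box C/D members was called in any comparison. Of the C/D proteins outside the rule only Snu13 was tested, named here after its values were seen, and it was called higher in tumours against healthy spleens (1.03, SE 0.237, adjusted p = 0.00256). Fbl, the methyltransferase, had 0, 53.0 and 41.3 CPM in healthy spleens, 35.1, 68.1, 72.1 and 93.3 CPM in tumour-bearing spleens and 59.8, 43.5, 42.7 and 73.2 CPM in tumours. The 0 stood in healthy replicate 1, the shallowest library, where it allows up to 5.36 CPM before TMM scaling. The other libraries had 30 to 140 counts. Nop58, a core protein of the particle, was at 122, 48.1 and 34.7 CPM, at 159, 126, 46.3 and 50.6 CPM and at 205, 197, 141 and 127 CPM in the 3 groups in the same order. Its tumours were above all healthy spleens (log2 fold change 1.40, SE 0.569, adjusted p = 0.0974), and its spleens split along the GC side. Against tumour-bearing replicates 1 and 2 only, Nop58 was at 0.22 (adjusted p = 0.78), against replicates 3 and 4 only at 1.75 (adjusted p = 0.0231) and against all 4 at 0.81 (adjusted p = 0.251). Nop56, its paired core protein, gave 0.64 against tumour-bearing (adjusted p = 0.23) and 0.94 against healthy spleens (adjusted p = 0.122).

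Nolc1, a nucleolar phosphoprotein that carries snoRNPs between Cajal bodies and the nucleolus, was at 9.25, 19.8 and 23.1 CPM in healthy spleens, at 22.1, 25.7, 22.1 and 26.0 CPM in tumour-bearing spleens and at 13.1, 17.4, 13.2 and 12.4 CPM in tumours. The tumours were below all tumour-bearing spleens and overlapped with the healthy ones. The log2 fold change against tumour-bearing spleens was -0.80 (SE 0.248, adjusted p = 0.0207), which was lost without tumour replicate 1 (adjusted p = 0.0558) or tumour replicate 4 (adjusted p = 0.0544). It was -0.81 (adjusted p = 0.0764) against tumour-bearing replicates 1 and 2 only and -0.83 (adjusted p = 0.0421) against replicates 3 and 4 only.

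The factors of the small subunit, the largest role with 18 tested members, had 1 called lower against tumour-bearing spleens and none against healthy spleens, beside 29% and 30.5% of all genes called, and medians of -0.08 and -0.11. Of 34 other small subunit genes tested, 4 were higher and 2 lower against tumour-bearing and 4 higher and 5 lower against healthy spleens. The member called was Rrp9, a protein of the snoRNP that starts processing of the small subunit RNA, at 33.9, 54.0 and 51.2 CPM in healthy spleens, 39.6, 45.2, 48.9 and 67.3 CPM in tumour-bearing spleens and 24.6, 27.5, 42.1 and 36.1 CPM in tumours. The groups overlapped in tumour replicate 3. The log2 fold change was -0.59 (SE 0.216, adjusted p = 0.0449), and 8 of 17 alternatives did not keep the call, among them those without tumour-bearing replicate 3 (adjusted p = 0.0731) or 4 (adjusted p = 0.157) and without tumour replicate 1 (adjusted p = 0.152), 2 (adjusted p = 0.11) or 4 (adjusted p = 0.0662). Against tumour-bearing replicates 1 and 2 only Rrp9 was at -0.36 (adjusted p = 0.356), against replicates 3 and 4 only at -0.82 (adjusted p = 0.0135), and with the GC correction at -0.41 (adjusted p = 0.086). Utp25 had 1, 10 and 8 counts in healthy spleens, 4, 7, 5 and 7 in tumour-bearing spleens and 0, 0, 5 and 1 in tumours, and was not tested.

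Among 10 tested factors of the large subunit, the methyltransferase Rrp8 had the lowest log2 fold change of all members in both tumour comparisons. Rrp8 (chr7:105731730-105737385, minus strand, GRCm38) methylates a base of the large subunit RNA and also takes part in silencing ribosomal DNA. It was at 20.0, 12.8 and 23.9 CPM in healthy spleens, at 23.6, 15.6, 14.9 and 16.6 CPM in tumour-bearing spleens and at 7.38, 2.90, 7.21 and 5.71 CPM in tumours. All tumours were below all spleens. Rrp8 had only 9, 2, 12 and 6 counts in the tumours, so its levels there carry large counting error. Tumours differed by -1.49 log2 units (SE 0.319, adjusted p = 0.00149) against tumour-bearing and -1.56 (SE 0.348, adjusted p = 0.00201) against healthy spleens, and both calls held under every alternative run. Nol8, a nucleolar factor that was not called against all 4 tumour-bearing spleens, was at -1.13 (adjusted p = 0.00561) against replicates 1 and 2 only and at 0.31 (adjusted p = 0.495) against replicates 3 and 4 only. Rrp1b was called higher in tumours against healthy spleens, at 1.54, 4.28 and 4.13 CPM in healthy spleens, 3.05, 6.14, 7.72 and 6.51 CPM in tumour-bearing spleens and 13.9, 14.5, 7.82 and 8.56 CPM in tumours. The tumours were its highest libraries, with a log2 fold change of 1.53 (SE 0.454, adjusted p = 0.015) against healthy and 0.84 (adjusted p = 0.0892) against tumour-bearing spleens. Rrp1b had only 1, 8 and 5 counts in the healthy spleens, so its levels there carry large counting error. Bop1 and Pes1, which with Wdr12 form a complex needed to release the large subunit precursor, were called in no comparison.

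Exosome subunits were among the lower genes in tumours. Of the 10 tested members, 4 were called lower in each tumour comparison, Exosc10, Exosc1, Exosc4 and Exosc7, and none higher, beside 13.2% and 14% of all genes called lower. Against tumour-bearing spleens 9 of 10 had negative values with a median of -0.26, and Exosc9 (0.17, adjusted p = 0.699) was the exception. Exosc10 (chr4:148558429-148582401, plus strand, GRCm38), the nuclear exonuclease that trims ribosomal and small nucleolar RNA ends, was at 72.4, 94.2 and 94.1 CPM in healthy spleens, 65.5, 74.2, 102 and 113 CPM in tumour-bearing spleens and 44.3, 47.8, 60.1 and 47.5 CPM in tumours. All tumours lay below all spleens. On the log2 scale Exosc10 differed by -0.81 (SE 0.184, adjusted p = 0.00229) against tumour-bearing and -0.80 (SE 0.2, adjusted p = 0.00464) against healthy spleens.

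Exosc1, a cap subunit, was at 50.9, 44.9 and 61.9 CPM in healthy spleens, 48.8, 42.4, 40.1 and 52.8 CPM in tumour-bearing spleens and 32.8, 21.7, 24.6 and 35.2 CPM in tumours. Exosc4, a ring subunit, was at 49.3, 49.2 and 54.5 CPM, at 52.6, 44.1, 53.0 and 52.1 CPM and at 32.8, 37.7, 33.7 and 31.4 CPM in the same order. For both, the highest tumour library was below the lowest spleen library. The log2 fold change against tumour-bearing spleens was -0.67 (SE 0.193, adjusted p = 0.0135) for Exosc1 and -0.58 (SE 0.159, adjusted p = 0.00944) for Exosc4. Against healthy spleens the values were -0.86 (adjusted p = 0.00402) and -0.60 (adjusted p = 0.0132), the latter lost without healthy replicate 3 (adjusted p = 0.0641). Exosc7, another ring subunit, was at 41.6, 71.2 and 81.7 CPM in healthy spleens, 57.2, 52.5, 76.7 and 70.2 CPM in tumour-bearing spleens and 59.8, 34.8, 30.7 and 38.0 CPM in tumours. Tumour replicate 1 lay among the spleens, and the log2 fold changes were -0.65 (SE 0.225, adjusted p = 0.0373) and -0.70 (SE 0.245, adjusted p = 0.0363).

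The exosome calls differed by the side of the spleens and held with the GC correction. Against tumour-bearing replicates 1 and 2 only, none of the 4 passed: Exosc10 was at -0.48 (adjusted p = 0.101), Exosc1 at -0.66 (adjusted p = 0.0536), Exosc4 at -0.52 (adjusted p = 0.0809) and Exosc7 at -0.42 (adjusted p = 0.308). Against replicates 3 and 4 only, Exosc10 was at -1.12 (adjusted p = 9.71e-05), Exosc1 at -0.71 (adjusted p = 0.0251), Exosc4 at -0.68 (adjusted p = 0.0108) and Exosc7 at -0.88 (adjusted p = 0.0114). With the GC correction all 4 were called, at -0.69 (adjusted p = 0.00197), -0.79 (adjusted p = 0.00405), -0.45 (adjusted p = 0.0348) and -0.78 (adjusted p = 0.0213) in the same order. For Exosc1 and for Exosc4, the values on the sides differed by less than their standard errors. The Exosc7 call was also lost without tumour-bearing replicate 3 (adjusted p = 0.109) or 4 (adjusted p = 0.0767) and without tumour replicate 2 (adjusted p = 0.0955), 3 (adjusted p = 0.118) or 4 (adjusted p = 0.0847). Against healthy spleens it was lost without healthy replicate 2 or 3 and without tumour replicate 2, 3 or 4, with log2 fold changes of -0.68 to -0.53. A replicate block lost the Exosc7 call against tumour-bearing (adjusted p = 0.0726) and healthy spleens (adjusted p = 0.0728). DESeq2 lost that against healthy spleens (adjusted p = 0.0527). The 10 subunits summed to 672 ± 73.4 CPM (SD, n = 3) in healthy spleens, 707 ± 61.5 (n = 4) in tumour-bearing spleens and 562 ± 36.8 (n = 4) in tumours. The 6 other exosome genes tested, which were not members and include the ribonuclease subunit Dis3, had a median of 0.29 against tumour-bearing spleens and none was called.

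**Figure D4:**
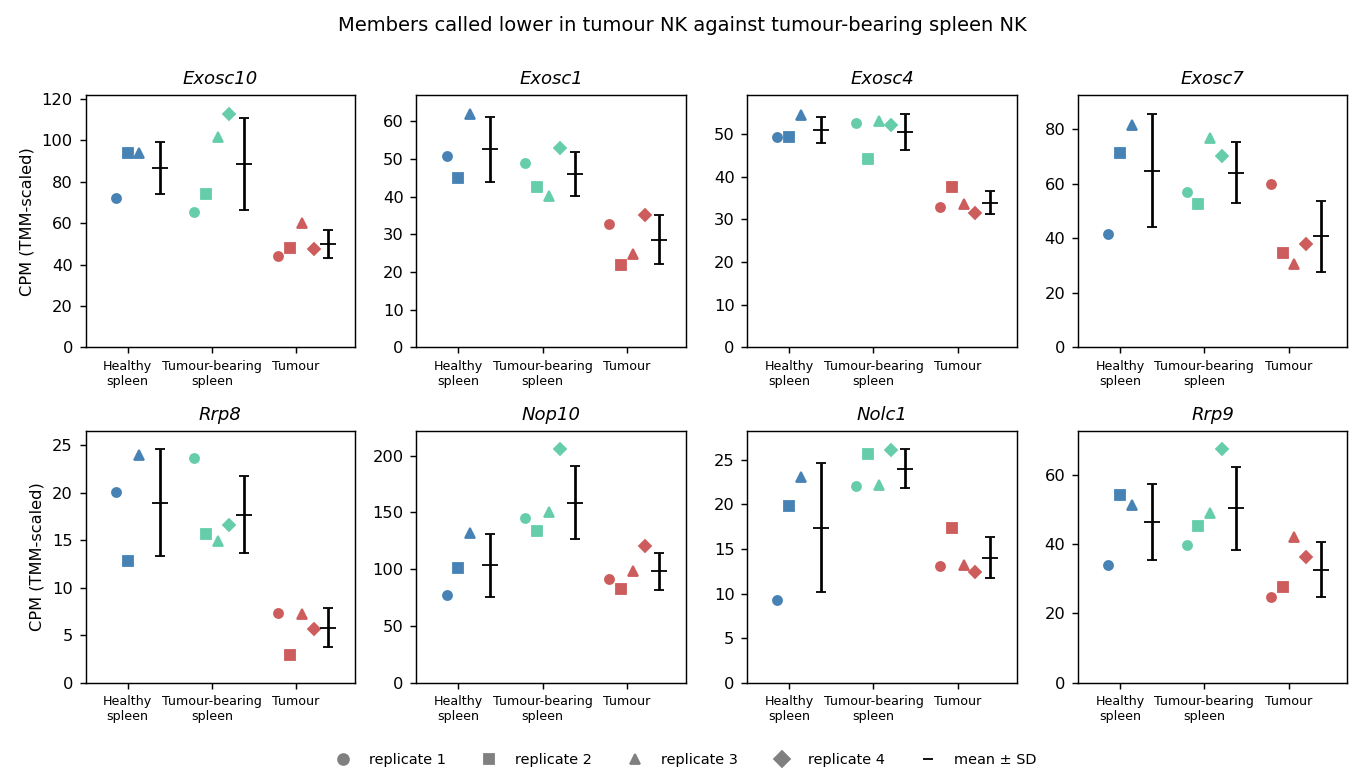
CPM of members that were lower in tumour NK cells, in each library by group (x axis), with mean and SD beside the points. Exosc10, Exosc1, Exosc4 and Rrp8 have tumour points that all lie below every spleen point, whereas tumour replicate 1 lies among the spleens for Exosc7.

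Genes of the pathway outside the rule also changed in both directions. Of 107 tested, 13 were higher and 11 lower in tumours against tumour-bearing spleens (22.4%, all genes 29%, median -0.10), and 11 were higher and 11 lower against healthy spleens (20.6%, all genes 30.5%, median -0.01). Riok1, a kinase of late small subunit maturation, was 1.04 log2 units higher (adjusted p = 4.16e-06) and Rsl1d1, a nucleolar protein, 0.68 higher (adjusted p = 0.00113) against tumour-bearing spleens. The helicase Ddx55, which acts on the large subunit precursor, was lower by 0.94 (adjusted p = 0.0012) against tumour-bearing spleens and by 1.09 against healthy spleens. Kri1, a small subunit factor, was lower by 0.73 against healthy spleens (adjusted p = 0.000521). Between the spleens 1 of the 107 was called, Mxd3 (0.935%).

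Because Myc and Max bind the E-box letters CACGTG, which read alike on both strands, the member promoters were searched for them. They stood in 11 of the 48 windows found (22.9%), in 12.5% of the windows of all tested genes and in 8.09% of all windows. All 11 were members that were called in no comparison or not tested: Exosc5, Mybbp1a, Nol11, Nop2, Pes1, Rrp7a, Utp18, Utp20, Utp25, Utp4 and Wdr43. None of the 12 called members with a window held the letters, and 12 windows are too few to set against the 12.5% of all tested genes. The called members Exosc4, Myc, Nop53 and Npm1 had no window and were not searched. The windows of Nop2, a methyltransferase of the large subunit RNA, and Pes1 are shown as examples, with the E-box in capitals.
Nop2, chr6:125131633-125131932, plus strand: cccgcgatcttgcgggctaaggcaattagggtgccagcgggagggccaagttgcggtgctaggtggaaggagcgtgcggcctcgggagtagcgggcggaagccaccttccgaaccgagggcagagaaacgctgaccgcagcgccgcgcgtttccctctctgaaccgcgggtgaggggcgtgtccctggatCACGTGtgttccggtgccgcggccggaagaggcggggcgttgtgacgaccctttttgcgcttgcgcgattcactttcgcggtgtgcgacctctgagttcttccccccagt
Pes1, chr11:3963725-3964024, plus strand: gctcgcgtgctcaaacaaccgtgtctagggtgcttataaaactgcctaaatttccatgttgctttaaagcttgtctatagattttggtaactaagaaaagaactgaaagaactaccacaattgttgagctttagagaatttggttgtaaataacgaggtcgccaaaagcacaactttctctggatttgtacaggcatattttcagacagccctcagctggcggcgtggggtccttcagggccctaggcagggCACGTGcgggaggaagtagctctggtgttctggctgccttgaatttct
The letters begin 60 bases before the start of Nop2 and 2 bases after that of Pes1. Nop2 was at 27.7, 38.5 and 34.7 CPM in healthy spleens, 33.5, 30.1, 36.5 and 36.2 CPM in tumour-bearing spleens and 41.0, 30.4, 30.7 and 20.0 CPM in tumours, with groups that overlapped (log2 fold change -0.15, adjusted p = 0.625). Pes1 gave -0.33 against tumour-bearing spleens (adjusted p = 0.247). Neither gene was called in any comparison, and a match of letters says nothing of binding. Any part of Myc in the member levels was not tested.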

How the data were processed

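NK cell RNA was measured in 11 libraries of 3 groups (3, 4 and 4). The deposited table holds raw counts per gene, which the authors made, per the submitters' processing notes, with bcl2fastq, STAR 2.4.2a, HTSeq and the mouse build mm10; the annotation and strand setting are not given in the sources used here, and no molecular identifiers are stated, so counts may include copies of a molecule and count limits cover counting error only. The table lists 10210 genes, so rarer genes were already absent. Its header joins the names of tumour libraries 3 and 4 with a space, and they were taken in the written order.

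edgeR 4.0.16 (R 4.3.3, limma 3.58.1) was run on the counts of all 11 libraries: filterByExpr, TMM, robust quasi-likelihood fit on group, Benjamini-Hochberg adjustment over 8471 genes, calls at an adjusted p under 0.05. The calculation was tested on simulated data. Alternatives were DESeq2 1.42.0 with its size factors, upper-quartile scaling, no filter, a GC correction, a replicate block, leaving out each library, and the sides of the spleen libraries. These sides were read from the same counts, and no label gives them. The samples were treated as unpaired, since the labels do not say whether equal replicate numbers share a mouse. The correlation of deviations in same-numbered libraries of tumours and tumour-bearing spleens ran from -0.0471 to 0.288. It cannot decide whether they were paired, since libraries of different numbers were not compared. GC content came from GENCODE M21 transcripts (59 of 60 members), gene positions from the same annotation and promoters from RefSeq on GRCm38.p6 (48 of 60 members).

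The members and gene lists were chosen with earlier results of these data known. Values in every library are given for Myc, the Polr1 genes, Npm1, Ncl, Fbl, Dkc1 and the 8 called members with the lowest adjusted p in each direction and comparison; other members with values were named for their role or for a sequence shown. Non-members are named up to 4 per direction. The ETS letters were chosen after the values were seen. Further markers summed, in healthy spleens, tumour-bearing spleens and tumours, to 43.1 to 79.2, 99.3 to 149 and 64.7 to 105.7 CPM for T cells (3 of 9 listed), 19.3 to 25.6, 8.37 to 15.9 and 4.35 to 23.4 for B cells (2 of 8), 149.5 to 177, 245 to 324 and 178 to 248 for dendritic cells (2 of 8), 4.95 to 14.4, 5.15 to 14.5 and 10.1 to 26.2 for fibroblasts (3 of 8) and 41.6 to 80.9, 74.8 to 94.2 and 139 to 202 for endothelium (1 of 6). No erythroid marker was listed. The fibroblast libraries of the series were not used.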

Additional observations from a re-analysis of the deposited data

Results flagged for a closer look

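In groups of 4 libraries, a library was looked at again where its gap to the nearest other library was past the critical share of the group's range in Dixon's test, which chance alone gives in about 1 of 20 groups. Of 112 groups of member values, 5 met this. Exosc4 in tumour-bearing replicate 2 was low, at 44.1 CPM, with the other libraries between 52.1 and 53.0 CPM. Gar1 in tumour replicate 1 was high, at 59.8 CPM against 39.0 to 40.3 in the other tumours. Nol7, a nucleolar protein, was high in tumour-bearing replicate 1 at 166.9 CPM (others 123.5 to 125) and in tumour replicate 2 at 163.7 CPM (others 143.6 to 145.9). Nol4l, which is not a ribosome biogenesis gene, was high in tumour replicate 4 at 13.3 CPM (others 6.56 to 7.25).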

How the results depend on the processing

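Of the single member values under the alternatives, 566 kept direction and side of the threshold, 62 lost the call, 2 gained it and 16 changed sign. The number of members called stayed within 1.5 times except in tumours against tumour-bearing replicates 1 and 2 only (5 members, beside 17.4% of all genes), in tumours against healthy spleens without healthy replicate 3 (7, range 7 to 13 over the libraries left out) and with the GC side as a block between the spleens (4). Leaving out each library gave 9 to 11 called members against tumour-bearing spleens and 1 to 1 between the spleens. The median against healthy spleens moved from 0.0216 to -0.0792 under upper-quartile scaling, and that of all genes from 0.0164 to -0.0842. That scaling changed the share of higher calls among all calls from 54.5% to 41.6% against tumour-bearing spleens, with 2 members higher and 11 lower. With libraries left out the medians ran from -0.22 to -0.12, 0.01 to 0.06 and 0.09 to 0.16 in the 3 comparisons. A replicate block gave 13, 13 and 1 called members and medians of -0.15, 0.03 and 0.11, but whether equal numbers share a mouse is not given. Changes of sign fell on values that were not called: in tumours against tumour-bearing spleens Polr1a (-0.018 with upper-quartile scaling, -0.081 against replicates 3 and 4 only, -0.028 to 0.259 with libraries left out) and Fbl (0.059 against replicates 1 and 2 only), and between the spleens with the side block Npm1 (-0.090) and Polr1c (0.022), with ranges over libraries left out of -0.122 to 0.045 for Polr1c, -0.25 to 0.11 for Dkc1 and -0.10 to 0.42 for Npm1. The cause was not tested. Healthy replicate 1 and tumour replicate 2 were the shallowest, so members near 5 CPM are limited by counting error there.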
